A study of Mus musculus with 18 samples.

Results

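Mog, Opalin, Tspan2, Evi2a, Mobp and Bcas1, genes of the oligodendrocyte and its myelin, were followed through the cortex and hippocampus of young mice raised under chronic hypoxia. They were found by reading the number in each zero-padded probe identifier of the bead array as a mouse gene ID, which gave 1 probe for each of the 6 genes among 3975 named genes and 14655 probes tested. Every animal was a CD-1 mouse labelled male and aged 16 days, and no genetic change is given for any group. Control mice, mice under chronic consistent hypoxia (CCH) and mice under chronic intermittent hypoxia (CIH) each gave 3 cortex and 3 hippocampus arrays, 18 in all. Hypoxia started at postnatal day 2 and went on for 2 weeks, and the oxygen levels and the cycle of the intermittent exposure are not given in the sources read for these samples. Nothing in the labels says whether the 3 arrays of a group came from 3 animals or whether both tissues came from the same animals. A p-value here therefore measures the spread between these arrays, which may be technical in part.

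Oligodendrocytes wrap axons in myelin, a stack of their own membrane, and in the mouse forebrain most of this wrapping is built in the weeks after birth. The change from a dividing precursor to a myelin-forming cell is driven by transcription factors such as Sox10 and Myrf, which switch on the genes of myelin proteins and of myelin lipid synthesis. Mog, the myelin oligodendrocyte glycoprotein, sits on the outermost face of the sheath and is a late marker of maturation. Opalin is a transmembrane glycoprotein of myelinating oligodendrocytes, Tspan2 is a tetraspanin of the oligodendrocyte membrane, and Evi2a encodes a predicted membrane protein from inside an intron of the neurofibromin gene Nf1. Mobp and Bcas1 are not membrane-spanning: Mobp is a small basic protein of compact myelin that lies on the cytoplasmic face of the membrane, and Bcas1 is a cytoplasmic protein known as a mark of oligodendrocytes that are starting to myelinate.

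In GRCm38.p6 Mog spans chr17:37010740-37023398, Opalin chr19:41061959-41077113, Tspan2 chr3:102734770-102772310 and Mobp chr9:120149742-120181488. Bcas1 spans chr2:170343973-170427911. Evi2a, at chr11:79526560-79530609, lies within the span of Nf1 at chr11:79339590-79581609, together with Omg and Evi2b. The part of the transcript that each probe matches was not analysed here.

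The 250 bases before the annotated start were found in RefSeq's GRCm38.p6 promoters for 4 of the 6 genes, and they are shown because the signals of these genes correlated over the arrays. Capitals mark the SOX words ACAAAG and ACAATG, searched on both strands, and every sequence reads 5′ to 3′ on the strand of its gene. The windows lie at chr9:120149492-120149741 (plus strand) for Mobp, chr19:41077114-41077363 (minus strand) for Opalin, chr17:37023399-37023648 (minus strand) for Mog and chr3:102734520-102734769 (plus strand) for Tspan2.
Mobp: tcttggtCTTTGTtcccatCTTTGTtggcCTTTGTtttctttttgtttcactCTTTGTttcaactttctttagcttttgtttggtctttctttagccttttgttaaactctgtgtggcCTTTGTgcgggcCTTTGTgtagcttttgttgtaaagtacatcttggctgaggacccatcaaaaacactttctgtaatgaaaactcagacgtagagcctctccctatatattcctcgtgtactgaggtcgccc
Opalin: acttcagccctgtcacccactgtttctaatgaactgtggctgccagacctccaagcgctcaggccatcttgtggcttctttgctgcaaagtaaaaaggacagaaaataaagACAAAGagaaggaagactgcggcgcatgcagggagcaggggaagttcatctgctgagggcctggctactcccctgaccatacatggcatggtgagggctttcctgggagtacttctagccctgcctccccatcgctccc
Mog: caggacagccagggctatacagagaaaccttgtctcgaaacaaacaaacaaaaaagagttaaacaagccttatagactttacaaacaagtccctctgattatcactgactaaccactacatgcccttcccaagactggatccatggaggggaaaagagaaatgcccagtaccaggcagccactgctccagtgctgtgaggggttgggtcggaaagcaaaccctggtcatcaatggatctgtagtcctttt
Tspan2: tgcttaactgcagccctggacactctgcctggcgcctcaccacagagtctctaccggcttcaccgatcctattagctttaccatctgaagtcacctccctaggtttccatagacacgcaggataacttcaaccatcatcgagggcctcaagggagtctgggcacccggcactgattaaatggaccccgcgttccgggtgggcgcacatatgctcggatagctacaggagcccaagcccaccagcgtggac

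The Mobp window held 6 SOX words, all read as CTTTGT on the strand of the gene and lying −243 to −120 bases from the start. Of 32851 windows of this length 25.2% held at least 1 SOX word, 0.493% held 3 or more and 1, the Mobp window itself, held 6 or more. Opalin had 1 SOX word and Mog and Tspan2 had 0 in the windows shown, while a further annotated start of Tspan2, not shown, had 1. The words CTGGCAC and CTGGTAC, searched on both strands for Myrf, occurred in 5.93% of windows and once among these 4, in Mog, at −83 bases from the start. The core words of the hypoxia response element, ACGTG and GCGTG, also searched on both strands, occurred in 38.6% of windows, and Tspan2 had 2 of them while the other windows had 0. Such a match describes letters and not a site in use.

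The arrays had median raw intensities between 70.8 and 96.4, and the number of probes detected lay between 12240 and 14518. Xist, the RNA made by the inactive X chromosome of females, was detected on 5 arrays without Kdm5d, a gene of the Y chromosome, although every sample was labelled male. They comprised 3 CCH arrays (cortex 2, cortex 3 and hippocampus 3) and 2 CIH arrays (cortex 2 and hippocampus 2), and none of the 6 control arrays was among them. Of the tissue markers, Prox1, a factor of dentate granule cells, was higher in control hippocampus than in control cortex by 1.82 on the log2 scale, one of 3 hippocampal markers called higher of 4 measured. Of 5 cortical markers 4 were called lower in hippocampus, Mef2c most (−1.94), and Bcl11b was called the other way (0.48). Drd1 and Rora, markers of the neighbouring striatum and thalamus, were called lower in hippocampus as well (−2.14 and −0.95). The mean intensity of the 18S rRNA probes was lower on all CCH cortex arrays (5132 to 8552) than on any control cortex array (10920 to 12880), while hippocampal ranges overlapped (7042 to 8627 in CCH, 4756 to 9525 in control).

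Under both kinds of hypoxia all 6 genes lay below control in both tissues, by 1.10-fold to 1.92-fold. Opalin, Tspan2 and Evi2a fell in CCH cortex, and the same genes and Bcas1 fell in CCH hippocampus, while no gene passed the test in CIH in a single tissue. The mean of the 6 log2 signals was 9.79 ± 0.03 (SD, n = 3) in control cortex, 9.39 ± 0.01 in CCH cortex and 9.48 ± 0.14 in CIH cortex. In hippocampus it was 9.59 ± 0.16 in control, 8.97 ± 0.17 in CCH and 9.21 ± 0.17 in CIH. Signals are log2 intensities after background correction and quantile normalization, and a gene is said to rise or fall only where limma's moderated test gave a Benjamini-Hochberg adjusted p under 0.05 over all 14655 probes. These are bulk samples, in which fewer oligodendrocytes and less RNA per oligodendrocyte cannot be told apart. CCH and CIH were both set against the same 3 control arrays of a tissue, so their differences are not independent of each other.

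**Figure D1:**
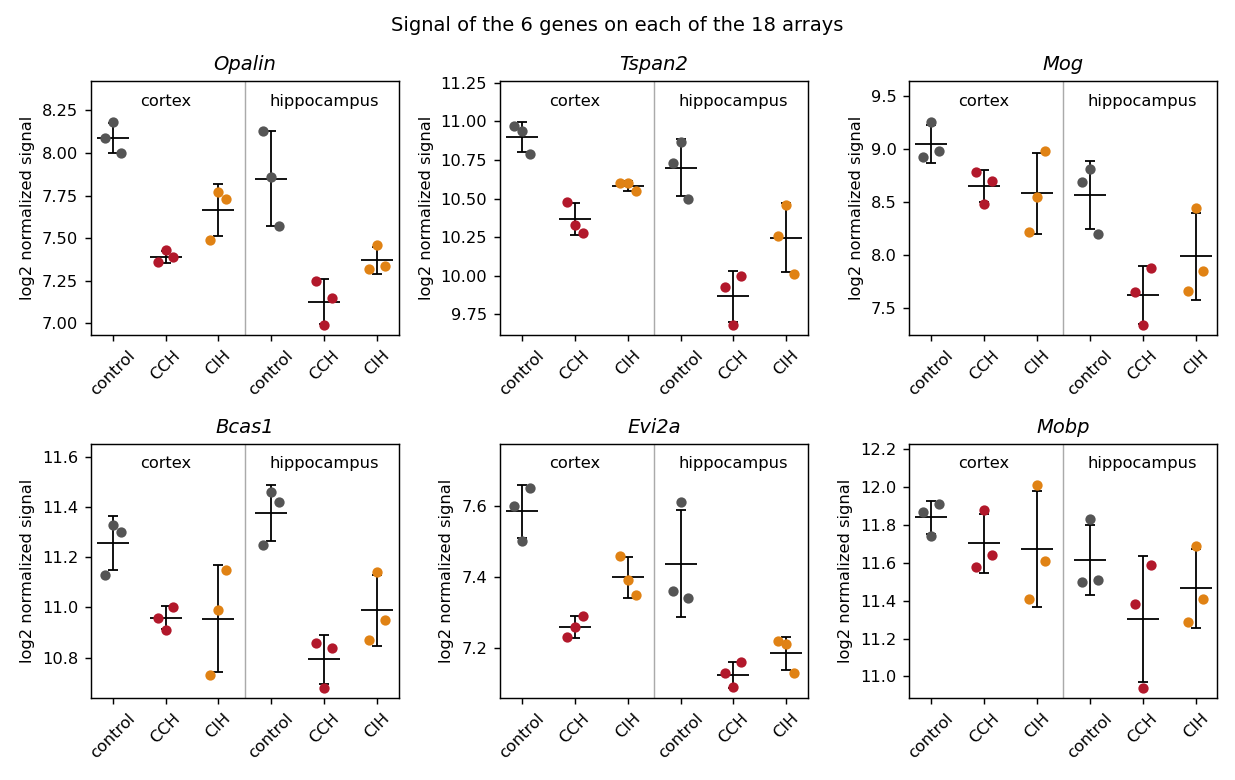
Log2 normalized signal (vertical axis, scaled for each gene) of the 6 genes on the 18 arrays, by group along the horizontal axis, with cortex left and hippocampus right of the grey line. Points are arrays, horizontal ticks are group means and bars are 1 SD (n = 3). The control mean is the highest of its tissue in all 6 panels, and for Opalin, Tspan2 and Evi2a no hypoxia array reaches a control array of its tissue.

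Mog was the gene with the widest spread. It lay at 8.92, 9.25 and 8.98 in control cortex, at 8.78, 8.48 and 8.70 in CCH cortex and at 8.22, 8.55 and 8.98 in CIH cortex. In hippocampus the control arrays lay at 8.69, 8.81 and 8.20, the CCH arrays at 7.65, 7.34 and 7.88 and the CIH arrays at 7.66, 8.44 and 7.85. CCH arrays stayed below every control array in both tissues, whereas the CIH ranges overlapped control in both. The largest mean difference of any of the 6 genes was that of Mog in CCH hippocampus, −0.94 ± 0.23 (SE, 95% interval −1.43 to −0.45), a 1.92-fold lower signal, and it did not pass (adjusted p = 0.11). With median scaling in place of quantile normalization it passed, at −1.09 (adjusted p = 0.044), and in the deposited series values it was −2.365 without a call. Those values are the intensities minus a constant per array, with anything under 16 set to 16. On CCH hippocampus 2 the constant was 224.41 and the raw Mog signal 240.4, so Mog lay near that floor. The −2.365 is therefore not a measure of a larger fall. Mog was at −0.40 ± 0.23 in CCH cortex (adjusted p = 0.58), −0.47 ± 0.23 in CIH cortex (adjusted p = 0.81, and −0.28 without CIH cortex 1) and −0.58 ± 0.23 in CIH hippocampus (adjusted p = 0.65). With both tissues averaged it fell in CCH by 0.67 ± 0.16 (adjusted p = 0.047, or 0.057 with the slide as a block), and the deposited values gave −1.43 (adjusted p = 0.13).

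Opalin fell in CCH in both tissues by nearly the same amount. Its signal was 8.09, 8.18 and 8 in control cortex, 7.36, 7.43 and 7.39 in CCH cortex and 7.49, 7.77 and 7.73 in CIH cortex. Control hippocampus read 8.13, 7.86 and 7.57, CCH hippocampus 7.25, 6.99 and 7.15 and CIH hippocampus 7.32, 7.46 and 7.34. The 3 groups of cortex did not overlap at all, and in hippocampus both hypoxia groups stayed below the lowest control array. The CCH difference was −0.70 ± 0.12 in cortex (1.62-fold lower, adjusted p = 0.0098) and −0.72 ± 0.12 in hippocampus (1.65-fold lower, adjusted p = 0.0079). In CIH it was −0.42 ± 0.12 in cortex (adjusted p = 0.31) and −0.48 ± 0.12 in hippocampus (adjusted p = 0.20), neither of which passed. Averaged over the tissues Opalin fell by 0.71 ± 0.08 in CCH (adjusted p = 0.00019) and by 0.45 ± 0.08 in CIH (adjusted p = 0.018).

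Tspan2 followed the same order. Control cortex gave 10.97, 10.94 and 10.79, CCH cortex 10.48, 10.33 and 10.28 and CIH cortex 10.60, 10.60 and 10.55. Hippocampal arrays gave 10.73, 10.87 and 10.50 in control, 9.93, 9.68 and 10 in CCH and 10.26, 10.46 and 10.01 in CIH. In each tissue the 3 groups lay in separate ranges, control above CIH and CIH above CCH, although in hippocampus the lowest CIH array came within 0.01 of the highest CCH array. The difference of CCH from control was −0.53 ± 0.115 in cortex (adjusted p = 0.046) and −0.83 ± 0.115 in hippocampus (1.78-fold lower, adjusted p = 0.0026). The cortex call was lost without the filter on dim probes (adjusted p = 0.13) and in the deposited series values (0.18). It was also lost without control cortex 1 (0.2). In CIH the values were −0.32 ± 0.115 in cortex (adjusted p = 0.58) and −0.45 ± 0.115 in hippocampus (adjusted p = 0.23). Over both tissues Tspan2 fell in CCH and in CIH, with differences of −0.68 ± 0.08 (adjusted p = 0.00025) and −0.385 ± 0.08 (adjusted p = 0.042).

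Evi2a moved little, with a small spread. It was at 7.60, 7.50 and 7.65 in control cortex, 7.23, 7.26 and 7.29 in CCH cortex and 7.46, 7.39 and 7.35 in CIH cortex. In hippocampus it was at 7.36, 7.61 and 7.34 in control, 7.13, 7.09 and 7.16 in CCH and 7.22, 7.21 and 7.13 in CIH. No hypoxia array overlapped control in either tissue. Evi2a fell by 0.325 ± 0.06 in CCH cortex (adjusted p = 0.027) and by 0.31 ± 0.06 in CCH hippocampus (adjusted p = 0.046, or 0.072 with the slide as a block), folds of 1.25 and 1.24. In CIH it was at −0.19 ± 0.06 in cortex (adjusted p = 0.55) and −0.25 ± 0.06 in hippocampus (adjusted p = 0.23), or −0.165 there without control hippocampus 2. The averaged fall was 0.32 ± 0.045 in CCH (adjusted p = 0.0012) and 0.22 ± 0.045 in CIH (adjusted p = 0.037, or 0.055 with the block).

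Evi2a shares its locus with genes that can be read beside it. Nf1, the Ras regulator whose span holds Evi2a, differed from control by 0.01 in CCH cortex, 0.03 in CIH cortex, 0.01 in CCH hippocampus and 0.10 in CIH hippocampus, and none of these passed (adjusted p of 0.97 or more). Omg, which encodes the oligodendrocyte-myelin glycoprotein, an anchored surface protein also made by neurons, was at −0.215 (adjusted p = 0.17) and −0.06 in CCH and CIH cortex and at −0.15 and −0.11 in hippocampus. Its average in CCH was −0.18 (adjusted p = 0.054). The probe of Evi2b was detected on 0 of 18 arrays.

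Mobp gave the smallest differences in CCH and CIH and no call, except with Xist presence as a covariate. That setting gave −0.407 in the CCH average, which passed (adjusted p = 0.05 after rounding). The Mobp arrays read 11.87, 11.74 and 11.91 in control cortex, 11.58, 11.88 and 11.64 in CCH cortex and 11.41, 12.01 and 11.61 in CIH cortex. They read 11.50, 11.83 and 11.51 in control hippocampus, 11.38, 10.94 and 11.59 in CCH and 11.29, 11.69 and 11.41 in CIH. Hypoxia and control arrays overlapped in all 4 comparisons, and CIH cortex 2 was the highest of the 18. The difference was −0.14 ± 0.17 in CCH cortex (adjusted p = 0.86), −0.17 ± 0.17 in CIH cortex (adjusted p = 0.95), −0.31 ± 0.17 in CCH hippocampus (adjusted p = 0.74) and −0.15 ± 0.17 in CIH hippocampus (adjusted p = 1). The averaged CCH difference was −0.225 with a 95% interval from −0.49 to 0.04, so a fall of up to that size is not excluded by these arrays. Single arrays weighed on each of these values. Without CCH cortex 1 the CCH cortex value for Mobp was −0.08, without CIH cortex 1 the CIH cortex value was −0.03, and without CCH hippocampus 2 or control hippocampus 2 the CCH and CIH hippocampus values were −0.13 and −0.04. In the other direction it reached −0.23 in CCH cortex without CCH cortex 2, −0.335 in CIH cortex without CIH cortex 2, −0.455 in CCH hippocampus without CCH hippocampus 3 and −0.26 in CIH hippocampus without CIH hippocampus 2.

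Bcas1 fell in CCH hippocampus and lay lower elsewhere. Control cortex read 11.13, 11.33 and 11.30, CCH cortex 10.96, 10.91 and 11 and CIH cortex 10.73, 10.99 and 11.15. Control hippocampus read 11.25, 11.46 and 11.42, CCH hippocampus 10.86, 10.68 and 10.84 and CIH hippocampus 10.87, 11.14 and 10.95. The groups were apart from control in 3 of 4 comparisons, and in CIH cortex array 3 lay above the lowest control array. The CCH difference was −0.58 ± 0.10 in hippocampus (1.499-fold lower, adjusted p = 0.013) and −0.30 ± 0.10 in cortex (adjusted p = 0.25). In CIH it was −0.30 ± 0.10 in cortex (adjusted p = 0.53, and −0.19 without CIH cortex 1) and −0.39 ± 0.10 in hippocampus (adjusted p = 0.25). Over both tissues Bcas1 fell by 0.44 ± 0.07 in CCH (adjusted p = 0.0033) and by 0.34 ± 0.07 in CIH (adjusted p = 0.037).

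Counted by comparison, 3 of the 6 genes fell in CCH cortex, where 0.389% of all probes were called lower, with a median difference of −0.36 against 0.00 over all probes (−0.001). In CCH hippocampus 4 of 6 fell, against 0.212% of probes, and the median was −0.65. In CIH cortex 0 of 6 were called by limma, where 0.0819% of probes were called lower, with 4 of 6 at an unadjusted p under 0.05 (934 of 14655 probes) and a median of −0.31. In CIH hippocampus 0 of 6 were called, where 0.0341% of probes were called lower, with 5 of 6 at an unadjusted p under 0.05 (936 probes) and a median of −0.42. With the tissues averaged 5 of 6 fell in CCH, against 1.19% of probes, and 4 of 6 in CIH, against 0.512%. That average treats cortex and hippocampus arrays as independent, which the labels do not settle, and every CIH call of the 6 genes rests on it. Mobp was called in neither average, and Mog in CCH but not in CIH. Leaving out 1 array at a time gave 1 to 3 calls in CCH cortex, 1 to 4 in CCH hippocampus, 4 to 5 in the CCH average and 0 to 4 in the CIH average, the last reaching 0 without CIH cortex 1 or CIH hippocampus 1.

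Arrays of the hypoxia group lay entirely below control for 5 of 6 genes in CCH cortex, where this held for 7.42% of all probes, and for 3 of 6 in CIH cortex, where it held for 4.6%. In hippocampus it held for 5 of 6 genes in CCH, against 6.87% of probes, and 4 of 6 in CIH, against 5.27%. The replicate number is also the slide, and each slide carried 1 array of each group. Within slides the difference from control was below 0 in 17 of 18 pairs in CCH cortex, 16 in CIH cortex, 17 in CCH hippocampus and 18 in CIH hippocampus. The exceptions were Mobp in CCH cortex on slide 2 (0.13), in CIH cortex on slide 2 (0.26) and in CCH hippocampus on slide 3 (0.08), and Mog in CIH cortex on slide 3 (0.00).

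**Figure D2:**
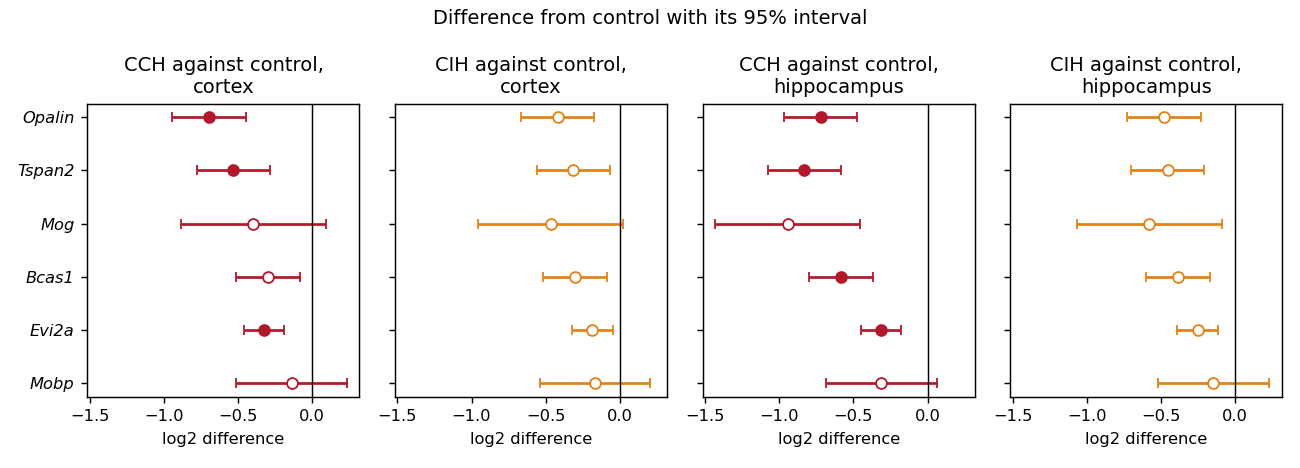
Difference from control (log2, horizontal axis) of each gene (vertical axis) with its 95% interval from the model over 18 arrays, in 4 panels for CCH and CIH in cortex and hippocampus. Filled points passed an adjusted p under 0.05, which 3 genes did in CCH cortex, 4 in CCH hippocampus and 0 in either CIH panel. All 24 points lie left of 0.

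Leaving out the 5 arrays with Xist and no Kdm5d left CCH cortex with array 1 alone, which is then assumed to vary like the other groups. Opalin was then at −0.73 in CCH cortex (adjusted p = 0.061), Tspan2 at −0.42 (adjusted p = 0.16) and Evi2a at −0.36 (adjusted p = 0.092), so 0 of 6 genes passed. In CCH hippocampus only Tspan2 passed, at −0.895 (adjusted p = 0.024), with Opalin at −0.73 (adjusted p = 0.11) and Bcas1 at −0.61 (adjusted p = 0.11). Averaged over the tissues Opalin, Tspan2, Evi2a and Bcas1 still fell in CCH, and 0 of 6 passed in CIH, where Opalin was at −0.50 (adjusted p = 0.12). With Xist presence as a covariate and all arrays kept, 3 genes were called in CCH cortex, 4 in CCH hippocampus, 6 in the CCH average and 4 in the CIH average.

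CIH was set directly against CCH to ask whether intermittent and continuous hypoxia differed. None of the 6 genes was called in cortex, in hippocampus or on average, where 0.471%, 0.287% and 1.07% of all probes were called in either direction, and 2, 1 and 3 of the 6 had an unadjusted p under 0.05. Averaged over tissues all 6 lay higher in CIH, by 0.07 for Mobp to 0.30 for Tspan2. Tspan2 had a 95% interval from 0.12 to 0.47 (adjusted p = 0.13) and Opalin, at 0.26, from 0.084 to 0.435 (adjusted p = 0.24). For Mog the interval ran from −0.20 to 0.49 and for Bcas1 from −0.055 to 0.25, so these arrays show neither a difference nor its absence. In cortex Bcas1 was at −0.002 and Mobp at −0.03, while Opalin was at 0.28, Tspan2 at 0.22 and Evi2a at 0.14 with no overlap between CIH and CCH arrays. Such a lack of overlap in either direction held for 13.9% of all probes.

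The tissues were then compared. In control mice the hippocampus minus cortex difference was −0.48 ± 0.23 for Mog, between −0.24 (Opalin) and −0.15 (Evi2a) for the other surface genes and Mobp, and 0.12 for Bcas1. None of the 6 was called (adjusted p of 0.18 or more, 1 of 6 at an unadjusted p under 0.05), in a comparison that called 11.7% of all probes. The CCH difference in hippocampus minus that in cortex was −0.545 ± 0.32 for Mog, −0.30 ± 0.16 for Tspan2, −0.29 ± 0.14 for Bcas1 and −0.17 ± 0.25 for Mobp, and close to 0 for Opalin (−0.02) and Evi2a (0.01). No interaction of tissue with CCH or CIH passed for any probe (0% called). In both, 0 of the 6 genes had an unadjusted p under 0.05, against 671 probes for CCH and 383 for CIH.

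Ordered by mean signal, control cortex stood first for 5 genes and control hippocampus for Bcas1, and CCH hippocampus stood last for all 6. Opalin, Tspan2 and Evi2a shared a single order: control cortex, control hippocampus, CIH cortex, CCH cortex, CIH hippocampus and CCH hippocampus. Of its 5 steps, 2 exceeded the larger SD of the neighbours without overlap in each of these 3 genes, and in all 3 the step from CIH cortex to CCH cortex was among them. For Mog that held for the step below control cortex alone, and for Mobp and Bcas1 it held for 0 steps. The groups were put in order by these same means, so each step is a drop by construction. How often such steps occur over all probes was not counted. Between CIH and CCH cortex 13.9% of all probes had no overlap in either direction.

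The signals of the 6 genes varied together over the arrays. With each gene's tissue mean removed, the 15 pairs correlated at r = 0.526 to 0.906 over the 18 arrays (median 0.814), highest for Mog with Bcas1 and lowest for Mobp with Evi2a. Once group means were removed the median was 0.46, from −0.06 for Opalin with Evi2a to 0.743 for Mog with Bcas1. All arrays share the groups and the slides, so these values describe the arrays only. In hippocampus single arrays stood off as a whole: all 6 genes lay above their group mean on control array 2 (0.15 on average), CCH arrays 1 and 3 (0.06 and 0.13) and CIH array 2 (0.19), and all 6 below it on CCH array 2 (−0.19) and CIH array 3 (−0.09). No cortex array had all 6 on one side.

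The spread within groups differed between the genes. It was 0.301 log2 units for Mog and 0.229 for Mobp, against a median of 0.111 over all probes, and 0.15 for Opalin, 0.148 for Tspan2, 0.129 for Bcas1 and 0.077 for Evi2a. In CCH hippocampus Mog had the largest difference of the 6 and missed the threshold, while Evi2a passed with −0.31, and both calls turned on the setting. Mog passed there with median scaling, and Evi2a did not pass with the slide as a block (adjusted p = 0.072), without the filter on dim probes (0.095) or with only the probes detected on all 18 arrays (0.063).

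**Figure D3:**
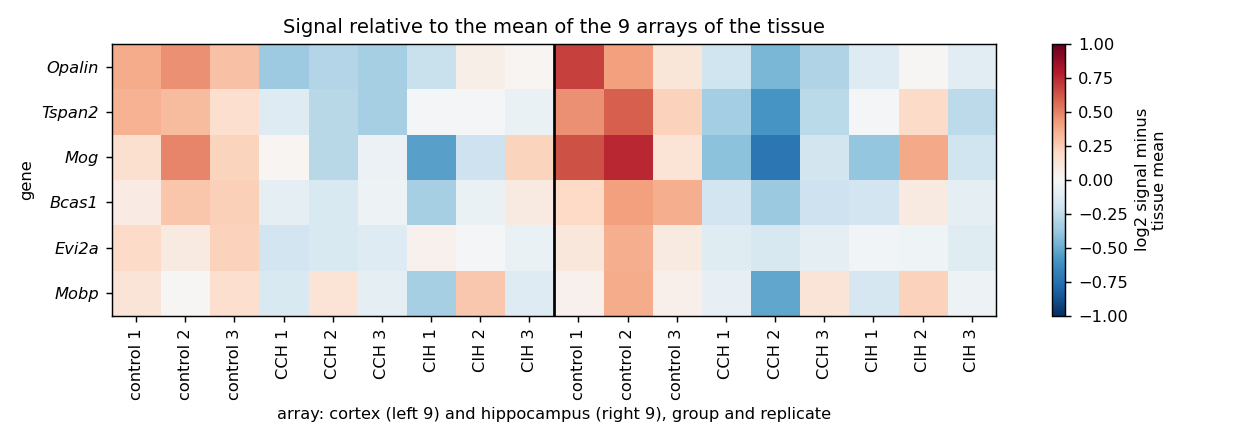
Log2 signal of each gene (rows) on each of the 18 arrays (columns), minus its mean over the 9 arrays of the tissue, from blue (−1) to red (+1). Control columns are red or close to white in both tissues, CCH hippocampus 2 is blue in all 6 rows, and the Mobp row is paler and mixed within groups.

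The named genes whose pattern was most like the mean of the 6, with tissue means removed, were Enpp6 (r = 0.944), Trf (0.939), Fa2h (0.929), Slc44a1 (0.902), Phldb1 (0.873), Pls1 (0.869), Tmem125 (0.869), Bin1 (0.859), Cers2 (0.849) and Micall1 (0.834). Pls1 and Bin1 were dim, with mean log2 signals of 6.71 and 6.81, near the 6.53 to 6.56 of Xist where it was undetected. Over the 3969 named genes compared the median r was 0.002 and the 95th percentile 0.473, and 15 genes exceeded 0.8. Several have known parts in oligodendrocytes: Enpp6 is a choline phosphodiesterase of newly formed oligodendrocytes, Trf is the iron carrier transferrin, Fa2h hydroxylates the fatty acids of myelin galactolipids, and Cers2 makes ceramides with very long chains. The measure of likeness holds the group differences, so their values in hypoxia follow from the choice and are given only as a description: the CCH average ran from −0.09 for Pls1 to −0.94 for Fa2h. Gene by gene, Trf was nearest to Mog (0.945), Tmem125 to Opalin (0.919), Enpp6 to Tspan2 (0.933), Padi2 to Evi2a (0.894) and Fa2h to Bcas1 (0.916). Mobp again stood apart, its nearest gene being Gga3, a Golgi sorting adaptor, at 0.719.

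Among other myelin and oligodendrocyte genes, 10 of 40 listed were measured, and Mbp, Mag, Mal and Cldn11 had no named probe. In CCH cortex 9 of 10 lay below control (median −0.20), as did 50.5% of all probes, and 2 fell, against 0.389% of probes called lower: Anln, which encodes the scaffold protein anillin of the myelin septin filaments, by 0.58 (adjusted p = 0.0087), and Tmem125 by 0.69 (adjusted p = 0.004). In CCH hippocampus 9 of 10 lay below control (51.9% of probes) and 1 was called (0.212% of probes): Tmem125 fell, at −0.545 (adjusted p = 0.024), while Anln was at −0.15. In CIH 8 of 10 lay below control in each tissue (46.6% of probes in cortex and 50.5% in hippocampus) and 0 were called by limma in either (0.0819% and 0.0341% of probes), with 1 and 3 at an unadjusted p under 0.05, and averaged over tissues Tmem125 fell by 0.37 (adjusted p = 0.027).

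Of the enzymes of myelin lipids and the secreted or signalling proteins of oligodendrocytes, 10 of 19 listed were measured. In CCH cortex 9 of 10 lay below control, as did 50.5% of all probes, with a median of −0.62, and 4 fell, against 0.389% of probes called lower. Padi2, which converts arginine in myelin proteins to citrulline, fell by 1.09, the lysophosphatidic acid receptor Lpar1 by 0.68, the fatty acid elongase Elovl1 by 0.54 and the desaturase Scd2 by 0.40. In CCH hippocampus all 10 lay below control, against 51.9% of probes (median −0.63), and 4 were called, against 0.212%: Fa2h fell by 1.21, Trf by 0.99 (adjusted p = 0.044, or 0.063 with the slide as a block), Padi2 by 0.88 and Scd2 by 0.305. In CIH cortex 8 of 10 lay below control (46.6% of probes) and 1 of 10 was called (0.0819% of probes), Padi2 at −0.58 (adjusted p = 0.037, or 0.052 with the block). In CIH hippocampus 9 of 10 lay below control (50.5% of probes) and 0 were called by limma (0.0341% of probes), with 7 of 10 at an unadjusted p under 0.05. In the CCH average, where 1.19% of probes were called lower, the calls included Qdpr, which fell by 0.63 (adjusted p = 0.013). In the CIH average, where 0.512% of probes were called lower, Padi2 fell by 0.52, Trf by 0.70 and Fa2h by 0.615 (adjusted p = 0.0021, 0.035 and 0.018). Padi2 and Scd2 were higher in CIH than in CCH cortex, by 0.51 and 0.47 (adjusted p = 0.032 and 0.00086), and with the block Padi2 did not pass (adjusted p = 0.051).

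Transcription factors of the lineage gave 5 measured genes of 15, with Sox10, Olig1 and Myrf not among them. Of these 5, 0 were called in any comparison with control (medians −0.24 in CCH and −0.18 in CIH, averaged). In the averages 1.19% of all probes were called lower in CCH and 0.512% in CIH. For precursor cells 2 genes of 15 were measured, Neu4 and Luzp2, with a CCH average of −0.12 and 0.21 and no call, and the defining markers Pdgfra and Cspg4 had no named probe. These counts are too small to describe the precursors.

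Markers of other cells moved in part with the 6 genes. Of the 3 hemoglobin genes measured all lay above control in CCH, and Hba-a1 (1.26) and Hbb-b1 (1.12) rose in cortex. In hippocampus all 3 rose, Hbb-b2 most (1.80). Hba-a1 also rose in the CIH average, by 0.48 (adjusted p = 0.023). Over all 14655 probes, calls in either direction numbered 124 in CCH cortex, 76 in CCH hippocampus, 22 in CIH cortex and 9 in CIH hippocampus. The averages had 324 in CCH and 131 in CIH. The summed signal of the 3 hemoglobin genes, on the linear scale, ran from 21100 to 23550 in CCH cortex against 7845 to 11100 in control. It ran from 14800 to 17090 in CCH hippocampus against 5734 to 8143. In CIH it ran from 11620 to 12590 in cortex and from 8548 to 10080 in hippocampus. For endothelium 3 of 12 markers were measured. All 3 lay above control in CCH, Pecam1 rising by 0.39 in cortex and Eng by 0.525 in the CCH average. Their summed signal was 876.6 to 963.9 in CCH cortex against 665.2 to 679.6 in control, and 776.6 to 878.1 against 548 to 716.6 in hippocampus, with Cldn5 and Flt1 having no named probe. Astrocyte markers, 4 of 10 measured, all lay below control in the CCH average with 0 called (median −0.17), and the summed signal was 836.9 to 1021 in CCH cortex against 931.3 to 1171 in control, and 912.8 to 1121 against 1260 to 1442 in hippocampus. The markers of astrocytes had a median of 0.01 in the CIH average, but their summed signal was not flat. It was 1145 to 1193 in CIH cortex and 1557 to 1645 in CIH hippocampus, the latter above every control hippocampus array. Aqp4, with a mean log2 signal of 9.55 against 6.83 to 7.4 for the other astrocyte markers, weighs most in such a sum. Limma called Aqp4 higher in CIH than in CCH hippocampus, by 0.89 (adjusted p = 0.015), where 0.287% of probes were called in either direction. Microglial markers, 3 of 10 measured, had 0 calls and averaged medians of 0.13 in CCH and −0.01 in CIH. Thalamic markers, 2 of 6 measured and 1 of them also in the list of transcription factors, lay below control in both tissues with 0 called (medians −0.20 in CCH cortex, −0.18 in CIH cortex, −0.44 in CCH hippocampus and −0.305 in CIH hippocampus). Their summed signal was 453.7 to 785.2 in control hippocampus, 392.4 to 454 in CCH and 450.2 to 501.8 in CIH, and in cortex 870.4 to 987.4 in control, 661.8 to 1051 in CCH and 722.5 to 945.6 in CIH. Drd1, the 1 striatal marker measured, was at 0.04 in the CCH average and −0.06 in the CIH average. The part of these cells and tissues and of the 18S signal in the lower signal of the 6 genes was not tested.

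**Figure D4:**
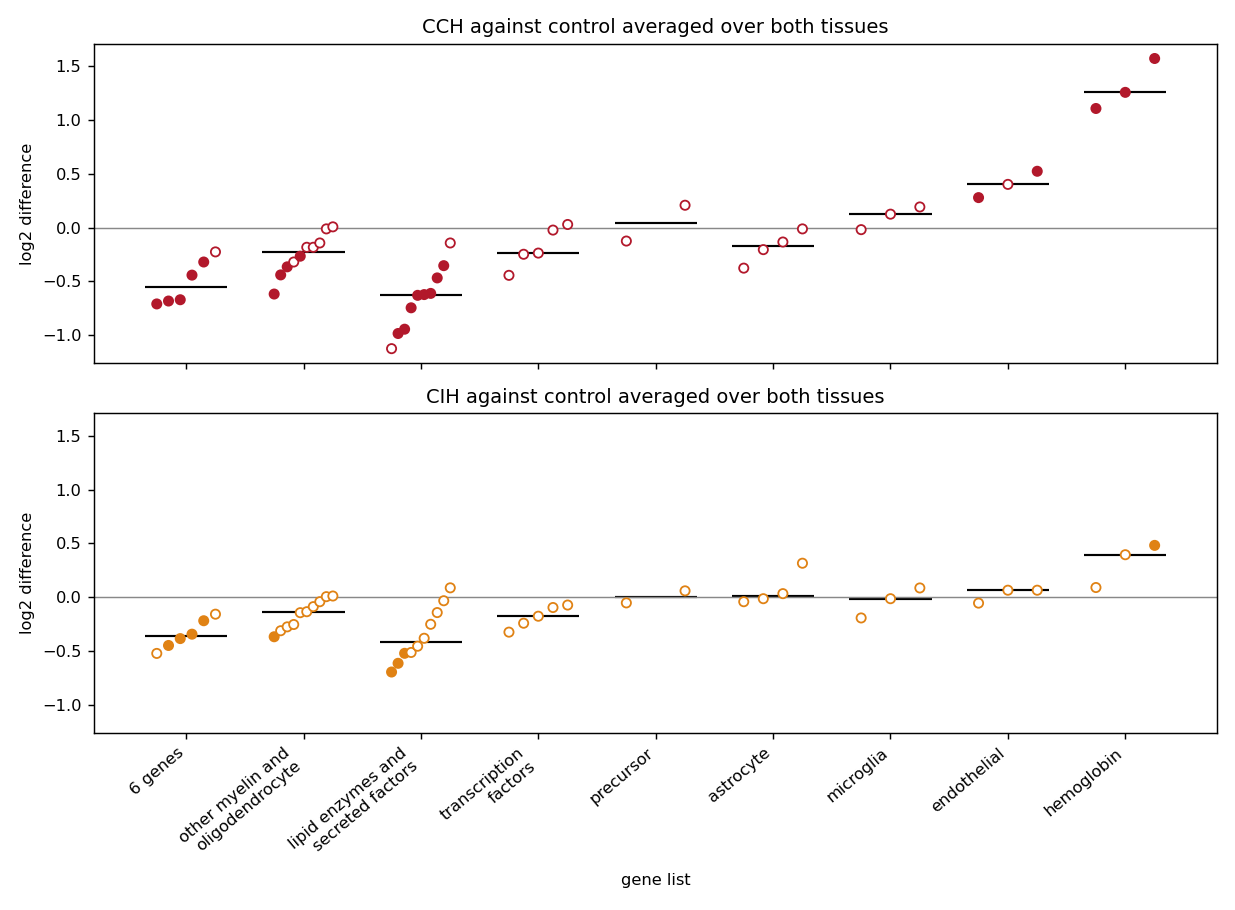
Log2 difference from control (vertical axis), averaged over both tissues, for CCH (upper panel) and CIH (lower panel), for the 6 genes and for the measured genes of 8 lists along the horizontal axis. Each point is a gene, filled where the adjusted p was under 0.05, and bars are list medians. In CCH 5 of the 6 genes and 8 of 10 lipid enzymes and secreted factors are filled below 0, while the 3 hemoglobin genes lie above 1.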

How the data were processed

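RNA from 18 samples, 100 ng each, was measured on Illumina Mouse-6 V1 bead arrays. Intensity per probe was exported by the authors without normalization, per the file headers, beside a detection score as deposited, which runs up to 1, and a bead count used here only to describe the probes. The export's header names BeadStudio 1.5.1.3, and the submitters' processing notes name BeadStudio 2.0. The deposited series values, also intensity, equal the export minus a constant per array (192.28 to 253.59) in 17 of 18 columns. The column of control cortex 2 equals the export with 0 subtracted. These values were an alternative only, with anything under 16 set to 16 before the log2 and quantile normalization. The export held 90 other columns, not used here.

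Intensities were background corrected and quantile normalized with neqc in limma 3.58.1 (R 4.3.3, offset 16), giving log2 values. Probes scoring above 0.99 on at least 3 arrays were kept, 14655 of 46120, without the 260 probes for array controls, vectors or 18S rRNA. All 6 genes passed on 18 of 18 arrays, with 29 to 59 beads per probe and array. A model of group means (lmFit, eBayes) used all 18 arrays, with two-sided p-values adjusted by Benjamini and Hochberg over all probes. The fit was checked on simulated data. No key from probes to genes was used beyond the number in the identifier, matched to GRCm38.p6 gene IDs, which named 4402 of the probes tested.

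Per the deposited hybridization log the replicate number is the slide, and a group always had the same place on its slide, so that place and group cannot be told apart. After removal of group means 31 of 45 same-numbered pairs correlated above 0.1 (median 0.226), against 17 of 90 others (median −0.0967). The series text calls the CIH mice CCH treated, and the titles were followed.

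The genes, the lists and the tests were chosen with earlier results of these data known. Named besides the 6 genes were the called genes of each list (at most 6 per comparison with control), the genes around Evi2a, Xist and Kdm5d, and the genes of most similar pattern, 10 for the mean and 3 for each gene, of which the nearest is given. Tissue markers, Aqp4 and genes that were not called were named after their values were seen. Alternatives changed background correction, scaling, the dim filter, the arrays, the block, Xist and the source of the values.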

Additional observations from a re-analysis of the deposited data

Results flagged for a closer look

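Xist was detected without Kdm5d on 5 of 18 arrays that the labels call male, and on 0 of the 6 control arrays. Its log2 signal was 9.35 to 10.17 on those 5 arrays and 6.53 to 6.56 on the other 13, of which 12 had Kdm5d detected. Averaged over the 6 genes, log2 signal on these 5 arrays was 9.38 in CCH cortex 2 and also in CCH cortex 3, 9.55 in CIH cortex 2, 9.10 in CCH hippocampus 3 and 9.40 in CIH hippocampus 2. The arrays of the same groups without Xist were at 9.40 (CCH cortex 1), 9.32 and 9.56 (CIH cortex 1 and 3), 9.03 and 8.78 (CCH hippocampus 1 and 2) and 9.10 and 9.12 (CIH hippocampus 1 and 3). Its part in the differences from control was not tested beyond the fits without those arrays and with Xist as a covariate.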

How the results depend on the processing

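Under other settings and with 1 array left out, all 948 values of the 6 genes in the 6 comparisons with control stayed below 0. Many of them could not do otherwise. An estimate does not change when the array left out is outside the comparison. Nor does it change with the choice of probes, the slide as a block or, within a tissue, the arrays of that tissue alone. The 948 values therefore hold repeats of the same estimate. The calls depended on the setting, and single slides gave values above 0. The replicate block kept 3 calls in CCH against control in cortex and gave 3 in CCH against control in hippocampus, 4 in the CCH average and 3 in the CIH average, losing Evi2a in CCH hippocampus and in the CIH average and Mog in the CCH average, and changed no other call of the 6 genes. Without the filter on dim probes 1 gene was called in CCH cortex and 0 in the CIH average, with more probes tested. The arrays of the tissue alone, 9 in place of 18, gave 0 in CCH against control in hippocampus. The deposited series values, which held 4 of the 6 genes, gave 0 in CCH cortex, 1 in CCH hippocampus, 2 in the CCH average and 0 in the CIH average, with Mog at −1.43 in the CCH average against −0.67. On CCH hippocampus 2 Mog lay near the floor of 16 set for these values, and control cortex 2 had nothing subtracted. Without the 5 Xist arrays there were 0, 1 and 0 calls in CCH cortex, CCH hippocampus and the CIH average. Median scaling added 2 calls, Mog in CCH hippocampus (−1.09, adjusted p = 0.044) and Tspan2 in CIH against CCH averaged over both tissues (0.364). The Xist covariate added Mobp in the CCH average (−0.407, adjusted p = 0.05 after rounding). Leaving out each array in turn gave 1 to 3 calls in CCH cortex, 1 to 4 in CCH hippocampus, 4 to 5 in the CCH average, 0 to 4 in the CIH average, 0 to 1 in CIH against CCH averaged over both tissues, 0 to 1 for hippocampus against cortex in control, and 0 in the others. CCH cortex fell to 1 call without control cortex 1 or 3 or any CCH cortex array, CCH hippocampus to 1 without CCH hippocampus 2 and to 2 without control hippocampus 2, and the CIH average to 0 without CIH cortex 1 or CIH hippocampus 1 and to 1 or 2 without 11 others: control cortex 1, control cortex 2, control cortex 3, CCH cortex 2, CCH cortex 3, CIH cortex 2, CIH cortex 3, control hippocampus 2, CCH hippocampus 1, CCH hippocampus 3 and CIH hippocampus 3. The differences that changed sign were between CIH and CCH or between tissues. For the tissue interaction of CCH, Evi2a was −0.027 without background correction and −0.008 with median scaling, and Opalin was 0.001 without the Xist arrays and 0.008 with the covariate. For the tissue interaction of CIH, median scaling gave 0.039 for Opalin and 0.013 for Evi2a, and the deposited values 0.006 for Bcas1. For CIH against CCH in cortex, median scaling gave 0.022 for Mobp and 0.066 for Bcas1, and the Xist covariate 0.092 and 0.026. Leaving out 1 array gave these ranges where the sign changed. For CIH against CCH averaged over both tissues Mobp −0.024 to 0.139. For CIH against CCH in cortex Bcas1 −0.099 to 0.11, Mobp −0.196 to 0.105 and Mog −0.268 to 0.113. For CIH against CCH in hippocampus Mobp −0.019 to 0.307. For tissue interaction of CCH Evi2a −0.037 to 0.099, Mobp −0.317 to 0.009 and Opalin −0.166 to 0.114. For tissue interaction of CIH Bcas1 −0.201 to 0.008, Evi2a −0.116 to 0.021, Mobp −0.114 to 0.186, Mog −0.34 to 0.086 and Opalin −0.199 to 0.081. The cause of these changes was not tested. A mean over several probes was not run, since each gene has 1 probe. The lowest detection score was 0.9981 for Opalin and Evi2a and 1 for the other 4 genes.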
